A study of Sus scrofa with 4 samples.

Results

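The genes described here encode the nuclear pore complex, the nuclear lamina and the proteins that join both to chromatin and to the cytoskeleton. They were taken by symbol from the deposited gene tables: every gene named NUP followed by a number, and 20 further names (lamins, inner membrane proteins, SUN proteins, nesprins and pore proteins with other names). This gave 40 of the 35670 genes listed, 22 by the NUP pattern and 18 by name. SYNE1 and TMPO, both among the 20 names, had no row under their symbols; SYNE1 was not analysed here, and TMPO was found by its identifier and is given beside the members. RNA came from skin fibroblasts of pig fetuses (PFFs) under serum starvation, cells that serve as nuclear donors in cloning. There were 2 control libraries (genotype WT, titled pTK-642) and 2 libraries of genotype BRG1-overexpressed (titled pTK-642-BRG1), and serum starvation was shared by all 4. BRG1, encoded by SMARCA4, is the ATPase of a chromatin remodelling complex, and the series asks how more of it in donor cells affects chromatin and the cloned embryo. The name pTK-642 stands in the titles of both groups and is not explained in the sources used here, so it is not known what the controls carry. Whether the paired libraries of a group came from separate cultures is not stated, so each p-value reflects only how far these 4 libraries scatter, which may be technical.

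The nuclear pore is a ring-shaped channel through the nuclear envelope. Its outer and inner rings are a scaffold, nucleoporins rich in phenylalanine-glycine repeats fill the central channel, and further proteins form filaments on the cytoplasmic face and a basket on the nuclear face. Beneath the inner membrane lies the lamina, a meshwork of A-type and B-type lamins to which chromatin is tethered through proteins such as emerin and the lamin B receptor. SUN proteins of the inner membrane bind nesprins of the outer membrane, and this bridge, the LINC complex, couples the nucleus to actin, microtubules and intermediate filaments. In nuclear transfer the donor nucleus enters the egg with its envelope, which is taken apart and rebuilt there.

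Of the 39 pore and lamina genes tested, 26 did not pass the test, beside 8105 of all 14617 genes tested. Both nesprins with a row, SYNE2 and SYNE3, were more than 2-fold higher in the libraries labelled BRG1. SEC13, which serves the pore and the vesicle coat COPII, was lower by a log2 fold change of -0.98. NUP88, LMNB2, BANF1, NUP62 and NUP188 fell by 0.55 to 0.70 on the log2 scale, and LMNA, the gene of the A-type lamins, did not pass the test.

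Of the 40 genes, 39 had enough reads to be tested; NUP210L had 0, 0, 8 and 0 reads in control 1, control 2 and libraries 1 and 2 labelled BRG1. In edgeR's quasi-likelihood test with Benjamini-Hochberg adjustment over all 14617 genes tested, 3 of the 39 were higher (7.69%) and 10 lower (25.6%) at an adjusted p of 0.05. Among all genes tested 44.6% passed, 21.0% as higher and 23.6% as lower, beside 33.3% of the members, and this difference was not tested. The median log2 fold change was -0.09 over the members and 0.02 over all genes tested. Only SYNE2 and SYNE3 both passed and changed at least 2-fold, 5.13% of the members, against 14.9% of all genes tested. The groups did not overlap in 25 of the 39 members (64.1%), 6 with the libraries labelled BRG1 above and 19 with them below, against 73.2% of all genes tested. The 26 members that did not pass had log2 fold changes from -0.31 to 0.27. In 25 of these 26 the 95% interval of the fold change lay within 2-fold either way, the exception being NUP210.

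The counts depended on the scaling and on which library was left out. Without control 1 or without control 2 the numbers of members called did not fall. With scaling by library size alone, which raises the median of all genes to 0.24, 6 members were higher and 6 lower, beside 33.0% and 14.6% of all genes tested. Leaving out BRG1-labelled library 1 gave 2 higher and 6 lower members, and leaving out library 2 gave the same counts, beside 26.9% and 27.8% of all genes called in either direction. The share of all genes called was 47.6% with library size alone, 44.3% with DESeq2's size factors, 32.1% without a filter, 49.8% with a filter of 1 CPM in 2 libraries, 41.5% with DESeq2 and 45.3% with limma-voom. It was 45.8% with the replicate block, 45.6% with the trend of fold change over gene span removed, 47.2% with both, 45.5% without control 1 and 51.8% without control 2. SYNE2, SYNE3, SEC13, NUP88, NUP62, NUP188 and LMNB2 passed in the same direction in each of the 13 alternatives, 7 of the 13 members called.

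**Figure D1:**
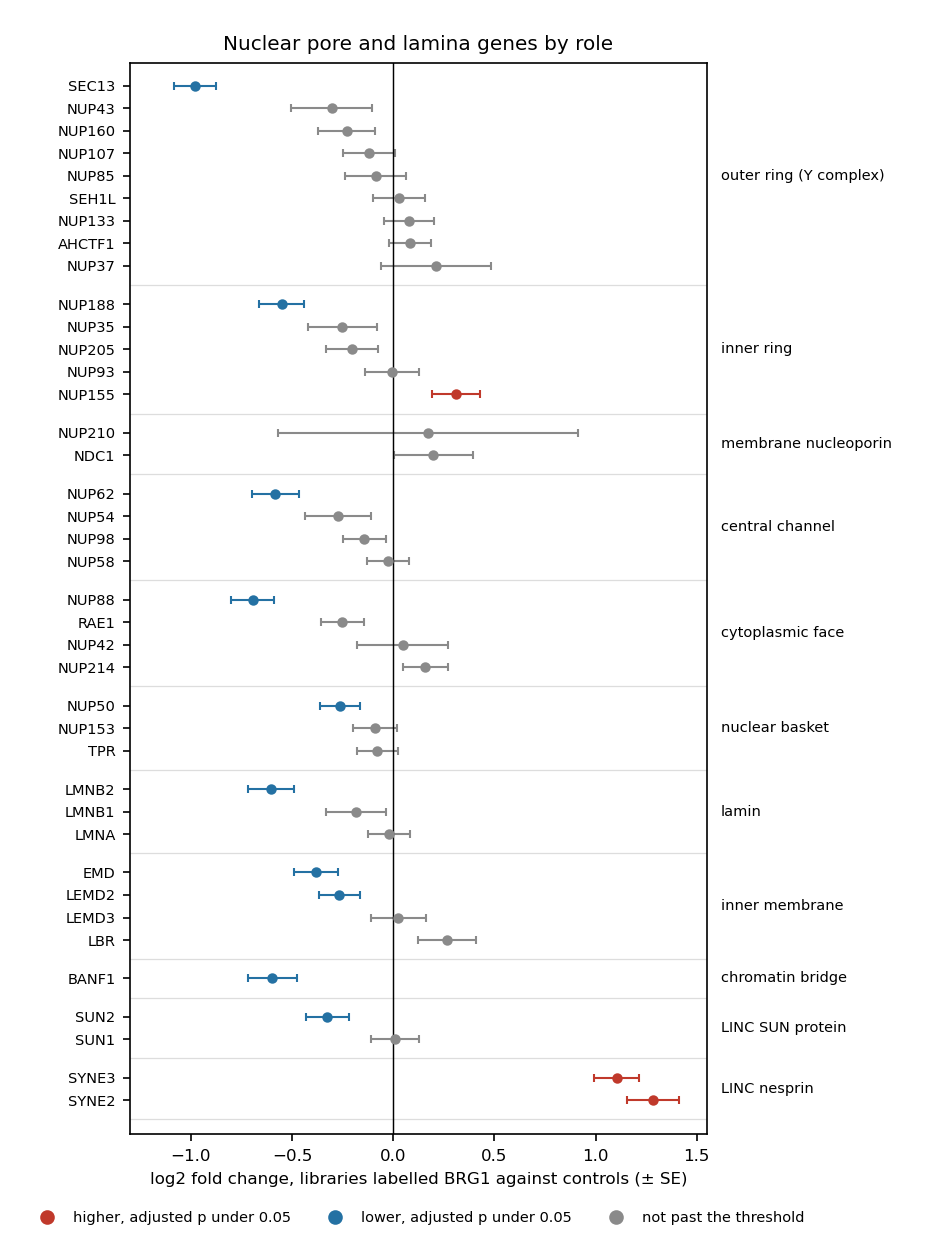
Log2 fold change of each tested member (x axis, libraries labelled BRG1 against controls; bars are ± 1 SE), grouped by the part of the pore or envelope. SYNE2 and SYNE3 stand alone at the right at 1.29 and 1.10, SEC13 lies farthest left at -0.98, and 26 of the 39 members are grey, not past an adjusted p of 0.05.

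SYNE2 (ENSSSCG00000005110; Sscrofa11.1 chromosome 1, 193909563 to 194352550) encodes nesprin-2, a giant protein of the outer nuclear membrane whose longest form binds actin. Its level was 15.6 CPM (counts per library size, with sizes scaled by the TMM factors of edgeR) in each control, and 39.4 and 36.6 CPM in libraries 1 and 2 labelled BRG1. Both BRG1-labelled libraries thus lay far above the controls, and the reads behind these levels numbered 545, 500, 1545 and 1369. This is a log2 fold change of 1.29 ± 0.13 (SE, 95% interval 1.01 to 1.56, adjusted p = 1.52e-06), or 2.44-fold. SYNE3 (ENSSSCG00000002495; chromosome 7, 116666238 to 116770305), the gene of nesprin-3, which binds plectin and so reaches intermediate filaments, stood at 54.3 and 65.6 CPM in controls against 129 and 129 in BRG1-labelled libraries. Its change was 1.10 ± 0.11 (95% interval 0.87 to 1.34, adjusted p = 1.58e-06), or 2.15-fold. Among all genes tested 8.26% had a fold change at or above that of SYNE2, and 10.5% at or above that of SYNE3. The counts are per gene, so it cannot be told which isoforms of these genes were higher.

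The SUN proteins, the inner partners of the nesprins, did not rise with them. SUN1 was measured at 45.8 and 56.3 CPM in controls against 50.4 and 52.2 in BRG1-labelled libraries, the latter lying between the controls (log2 fold change 0.01 ± 0.12, 95% interval -0.24 to 0.26, adjusted p = 0.957). SUN2, which with SUN1 anchors most nesprins in somatic cells, fell from 163 and 193 CPM to 143 and 141, a small decrease that kept the groups apart (-0.33 ± 0.11, adjusted p = 0.0227). The SUN2 call was lost with scaling by library size alone (-0.10, adjusted p = 0.473) and after removal of the span trend (-0.24, adjusted p = 0.0625). It was also lost on leaving out BRG1-labelled library 1 or 2, although the values there, -0.337 and -0.315, lay near that of all 4 libraries.

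Among the 3 lamins, LMNB2 fell and the others did not pass, beside 44.6% of all genes tested that passed. LMNA (ENSSSCG00000006496; chromosome 4, 93899019 to 93927255), which yields lamins A and C, had 683 and 665 CPM in controls against 671 and 658 in BRG1-labelled libraries. The groups overlapped, and the log2 fold change was -0.02 ± 0.10 (95% interval -0.24 to 0.20, adjusted p = 0.891). LMNB1 (ENSSSCG00000014248; chromosome 2, 129807228 to 129862211), the B-type lamin that proliferating cells express strongly, had 15.3 and 17.3 CPM in controls against 13.9 and 14.8 in BRG1-labelled libraries (-0.18 ± 0.15, 95% interval -0.50 to 0.13, adjusted p = 0.331). LMNB2 (ENSSSCG00000026784; chromosome 2, 76125932 to 76146564), the other B-type lamin, fell from 45.5 and 49.0 CPM to 31.2 and 30.9, with no overlap (-0.61 ± 0.11; 0.66-fold, adjusted p = 0.000524). Its fall was -0.38 with scaling by library size alone (adjusted p = 0.0131) and -0.53 with the span trend removed (adjusted p = 0.000936).

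BANF1 (ENSSSCG00000012961; chromosome 2, 6333451 to 6335326) encodes a small protein that crosslinks DNA and recruits LEM domain proteins when the envelope reforms after mitosis. It fell from 84.8 and 66.5 CPM to 51.5 and 48.4 (-0.60 ± 0.12, adjusted p = 0.000999), although the controls differed from one another by as much as control 2 differed from the libraries labelled BRG1. EMD, the gene of emerin, a LEM domain protein, fell from 95.9 and 82.2 CPM to 65.9 and 70.7 (-0.38 ± 0.11, adjusted p = 0.00995). LEMD2, another LEM domain protein of the inner membrane, fell from 97.9 and 96.2 CPM to 83.3 and 78.2 (-0.27 ± 0.10, adjusted p = 0.0418). Each of these 3 differences was no longer past the threshold once the span trend was removed, BANF1 at -0.16 (adjusted p = 0.211), LEMD2 at -0.14 (adjusted p = 0.254) and EMD with the opposite sign at 0.02 (adjusted p = 0.868). The EMD and LEMD2 calls were also lost with scaling by library size alone (-0.16 and -0.04) and without either library labelled BRG1. Their values were -0.33 and -0.31 without BRG1-labelled library 1, and -0.44 and -0.22 without library 2.

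LEMD3, which binds SMAD proteins as well as lamins, overlapped between the groups, with 25.6 and 25.9 CPM in controls against 28.6 and 23.7 in BRG1-labelled libraries (0.03 ± 0.14, adjusted p = 0.901). LBR, the lamin B receptor, which also acts in cholesterol synthesis, had 16.5 and 17.4 CPM in controls against 22.0 and 18.9 in BRG1-labelled libraries. These values did not overlap, yet the difference did not pass (0.27 ± 0.14, adjusted p = 0.144), and it passed with scaling by library size alone (0.49, adjusted p = 0.0110). TMPO, which encodes the LEM domain proteins called LAP2, is no member by symbol, but its row (ENSSSCG00000038487) was higher, at 3.91 and 2.99 CPM in controls against 5.89 and 6.01 in BRG1-labelled libraries (0.78 ± 0.24, adjusted p = 0.0161). That call rests on 137, 96, 231 and 225 reads and was lost on leaving out BRG1-labelled library 1 or 2 (adjusted p = 0.0584 and 0.0715).

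**Figure D2:**
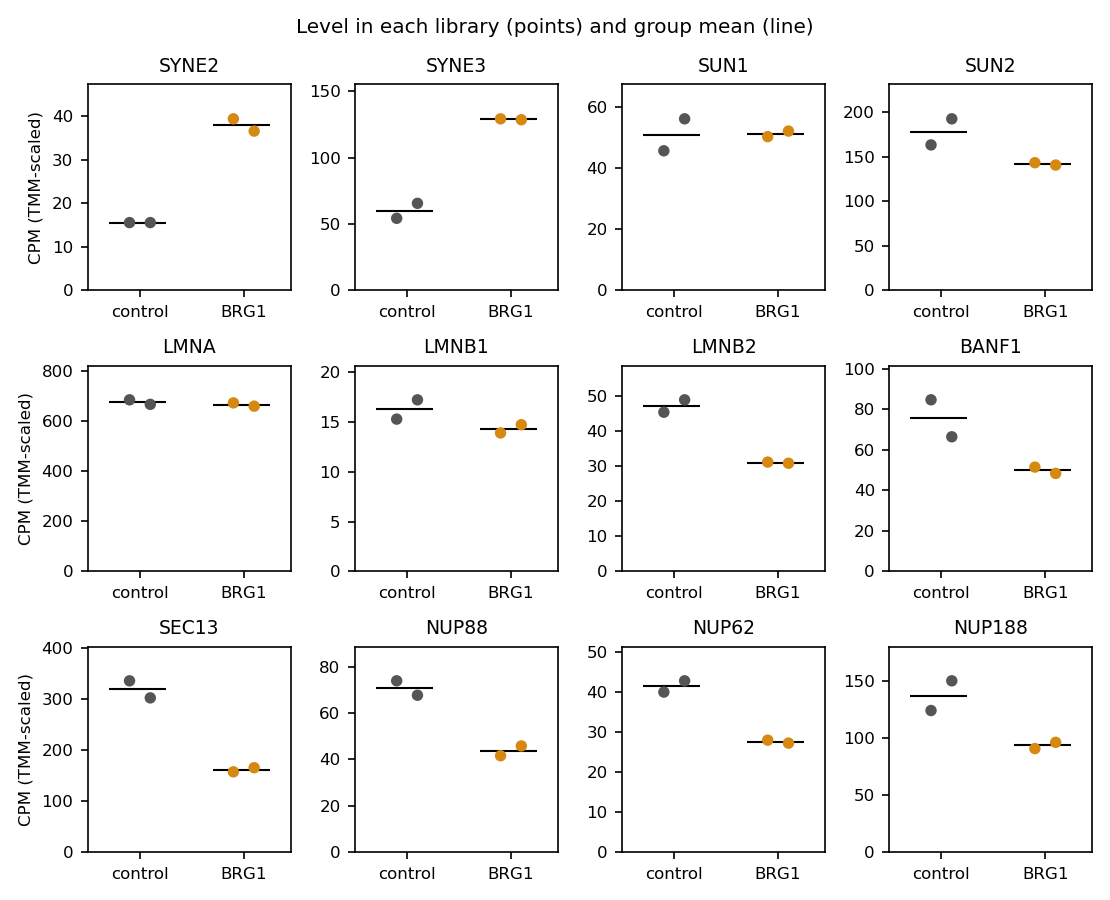
Level of 12 members in each library, in CPM scaled by TMM on a linear axis from 0; points are libraries (grey, controls; orange, labelled BRG1) and lines are group means. SYNE2 and SYNE3 are more than 2-fold higher in the libraries labelled BRG1, LMNA is level across all 4, and SEC13, NUP88, NUP62, NUP188, LMNB2 and BANF1 are lower.

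In the outer ring, 1 of 9 tested members passed, beside 44.6% of all genes tested. SEC13 (ENSSSCG00000011572; chromosome 13, 66483620 to 66524411), a beta-propeller protein shared by the Y-shaped outer ring complex and COPII, fell from 335 and 302 CPM to 157 and 165. The libraries labelled BRG1 lay at 0.51-fold of the controls (-0.98 ± 0.10, 95% interval -1.20 to -0.76, adjusted p = 2.82e-06), and 7.79% of all genes tested fell as far or farther. The other 8 outer ring genes had values from -0.31 for NUP43 to 0.21 for NUP37, and none passed. They include NUP107, NUP133 and NUP160, the stem of the Y (-0.12, 0.08 and -0.23), and AHCTF1, which encodes ELYS, the protein that starts pore assembly on chromatin (80.3, 90.0, 91.2 and 89.3 CPM, 0.08 ± 0.10). AHCTF1 passed as higher with library size alone (0.31, adjusted p = 0.0252). SEH1L, which like SEC13 also belongs to the GATOR2 complex of nutrient sensing, had 47.9 and 52.4 CPM in controls against 57.7 and 44.5 in BRG1-labelled libraries, so that the groups overlapped (0.03 ± 0.13, adjusted p = 0.877). SEH1L passed as higher with the span trend removed (0.36, adjusted p = 0.0311). That value rests on a span of 3.91 kb, which was matched by symbol and not by gene identifier.

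The inner ring, which braces the pore against the membrane, held changes in both directions. NUP188 (chromosome 1, 269259496 to 269312872) fell from 124 and 150 CPM to 90.9 and 96.4 (-0.55 ± 0.11, adjusted p = 0.000937). NUP155 (chromosome 16, 22520443 to 22590119) was the pore gene that rose, from 30.5 and 29.1 CPM to 35.6 and 38.3 (0.31 ± 0.12, adjusted p = 0.0457). The NUP155 call was lost in 7 of 13 alternatives, among them DESeq2 (adjusted p = 0.0731) and removal of the span trend (0.19, adjusted p = 0.180). NUP205, the close structural relative of NUP188, had 27.0 and 29.6 CPM in controls against 23.8 and 25.3 in BRG1-labelled libraries; its groups lay apart, but the difference of -0.20 did not pass (adjusted p = 0.215), and it passed as lower with the span trend removed (-0.39, adjusted p = 0.0158). NUP93, the linker of the inner ring, was level at 23.1, 20.9, 21.5 and 22.3 CPM (-0.005 ± 0.13), and NUP35 had a value of -0.25 (adjusted p = 0.252), past the threshold without control 2 (-0.41, adjusted p = 0.0405).

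Of the 4 channel nucleoporins, NUP62 passed, beside 44.6% of all genes tested. NUP62 forms a coiled-coil trio with NUP54 and NUP58, and fell from 40.0 and 42.8 CPM to 28.0 and 27.3 (chromosome 6, 54921627 to 54945705; -0.58 ± 0.12, adjusted p = 0.000925). Its partners did not pass, NUP54 at 22.0, 17.1, 17.9 and 14.4 CPM (-0.27 ± 0.16) and NUP58 at 67.1, 66.9, 68.5 and 63.1 (-0.03 ± 0.10). NUP54 passed as lower without control 2 (-0.46, adjusted p = 0.00352). NUP98, whose transcripts encode both the channel protein NUP98 and the scaffold protein NUP96, had 123 and 146 CPM in controls against 120 and 124 in BRG1-labelled libraries (-0.14 ± 0.11, adjusted p = 0.308). NUP98 reached the threshold as lower on leaving out control 1 (-0.27, adjusted p = 0.000135), and after removal of the span trend (-0.32, adjusted p = 0.0141).

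On the cytoplasmic face, NUP88 (ENSSSCG00000033706; chromosome 12, 51562455 to 51603095), which tethers the export platform, fell from 73.8 and 67.7 CPM to 41.6 and 45.8, with no overlap (-0.70 ± 0.11; 0.62-fold, adjusted p = 0.000109). NUP214, its binding partner, had 64.0 and 76.1 CPM in controls against 74.6 and 81.8 in BRG1-labelled libraries (0.16 ± 0.11, adjusted p = 0.268), and passed as higher without control 2 (0.27, adjusted p = 0.00240) and with library size alone (0.38, adjusted p = 0.0128). RAE1, an mRNA export factor that binds NUP98, was lower by a value that did not pass (49.9, 51.8, 43.1 and 42.2 CPM; -0.25 ± 0.11, adjusted p = 0.0689). It passed without control 1 and without control 2 (adjusted p = 0.00963 and 0.0321). NUP42, a small export nucleoporin, rested on 165 to 211 reads and did not pass (0.05 ± 0.23).

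In the nuclear basket, NUP50, which helps to release import cargo, fell from 93.6 and 90.3 CPM to 76.6 and 76.9 (-0.26 ± 0.10, adjusted p = 0.0431), a call lost in 7 of 13 alternatives, such as library size alone (-0.04, adjusted p = 0.790). NUP153 and TPR, the anchor and the filament of the basket, did not pass (-0.09 ± 0.11 and -0.08 ± 0.10), TPR at 175, 192, 174 and 173 CPM. TPR passed as lower without control 1 (-0.15, adjusted p = 0.0219). Of the membrane nucleoporins, NDC1 had 6.57 and 5.95 CPM in controls against 7.09 and 7.29 in BRG1-labelled libraries (0.20 ± 0.20, adjusted p = 0.437). NUP210, which is known to vary between tissues, was barely detected, with 10, 22, 29 and 13 reads, and a 95% interval from -1.41 to 1.76 leaves even a 2-fold difference undetectable at this depth.

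Ratios of members inside a library do not depend on the scaling between libraries. The log2 ratio of LMNB2 to LMNA counts was -3.91 and -3.76 in controls and -4.43 and -4.41 in the libraries labelled BRG1, a difference of -0.58. The ratio of LMNB2 to LMNB1 differed by -0.42 and that of SUN2 to SUN1 by -0.34, with no overlap in either. The ratio of LMNB1 to LMNA overlapped between groups (difference -0.16), as did that of TPR to NUP153, which lay between 1.85 and 1.92 in every library. The difference was -0.996 for SEC13 to SEH1L and 0.28 for LBR to LMNA. In an exact two-sided permutation test, 2 libraries against 2 cannot give a p below 0.333, which the 5 ratios without overlap reached (adjusted p = 0.533 over the 8 ratios computed).

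**Figure D3:**
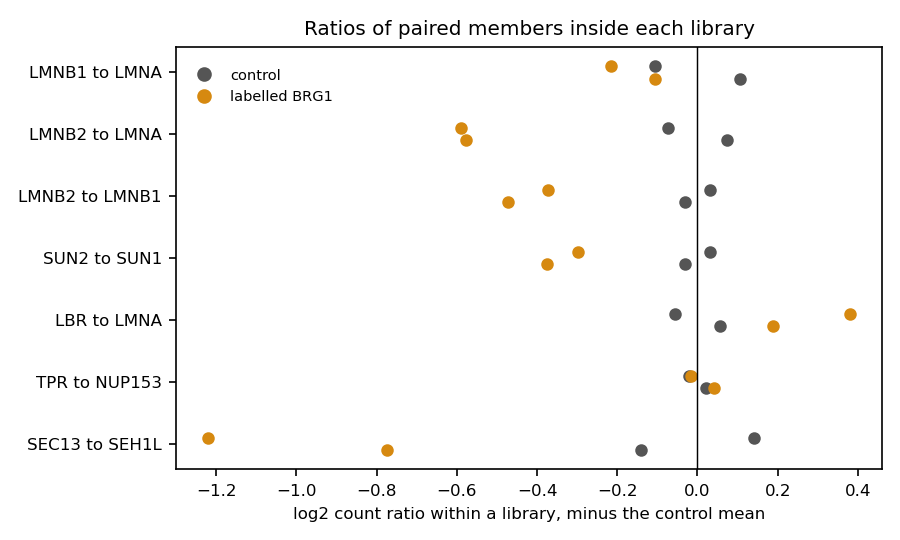
Log2 ratio of the counts of paired members inside each library, minus the mean of the controls (x axis; grey, controls; orange, libraries labelled BRG1). The ratios of LMNB2 to LMNA and LMNB1, of SUN2 to SUN1 and of SEC13 to SEH1L lie left of both controls, while TPR to NUP153 stays near 0.

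Fold change moved with the length of genome that a gene spans, over all genes tested that have a span in the RefSeq table. The median log2 fold change was -0.35 in the decile of shortest span (median 3.29 kb) and 0.29 in that of longest span (median 262 kb). BANF1 and EMD, with spans of 1.88 and 2.38 kb, belong to the shortest decile, and SYNE2, at 443 kb, to the longest. SYNE2 and SYNE3 still passed after that trend was removed, at 0.97 (adjusted p = 9.998e-06) and 0.92 (adjusted p = 1.64e-06), and SEC13, with a span of 40.8 kb in a decile with a median of 0.02, remained at -1.01. Reads outside annotated genes also differed, with 6.11% and 7.34% of reads listed in controls and 10.3% and 10.5% in the libraries labelled BRG1. The part of span and of these reads in the other differences was not tested.

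**Figure D4:**
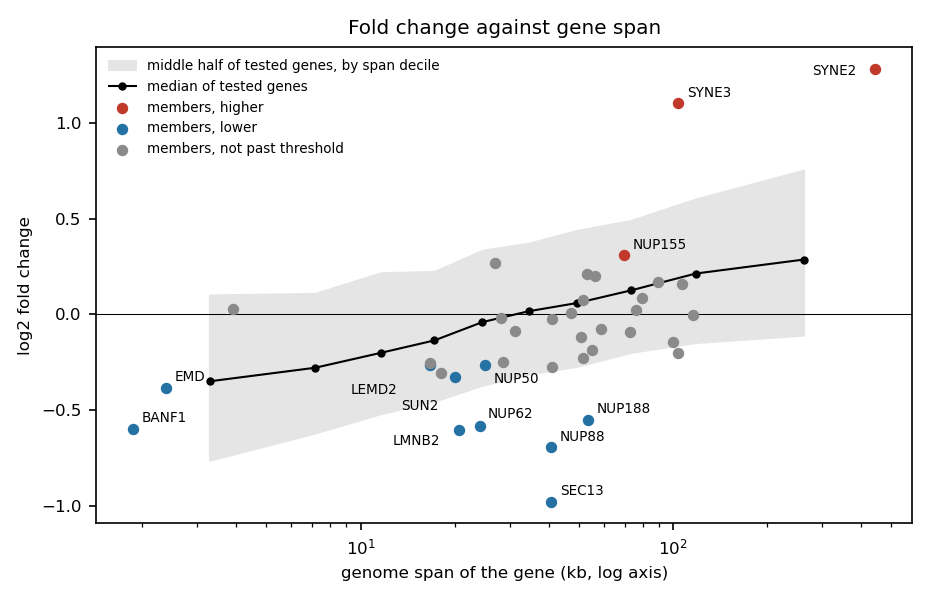
Log2 fold change (y axis) against genome span in kb (log x axis) for the members with a span (coloured by call), over the median (line) and the middle 50% (band) of all tested genes in each decile of span. The medians climb from -0.35 to 0.29; SYNE2 and SYNE3 lie above the middle 50% of their deciles, NUP62, LMNB2, NUP88, NUP188 and SEC13 lie below theirs, and BANF1 and EMD lie at the short end.

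The genes that work with the pore were read from 7 lists of transport, export and envelope genes, in which 11 of 80 tested genes rose and 23 fell (42.5% called, near the 44.6% of all genes tested). Under library size alone the counts were 23 and 9. They were 3 and 9 on leaving out BRG1-labelled library 1, and 5 and 10 on leaving out library 2. List counts given here and below without an alternative stand beside 21.0% higher and 23.6% lower over all genes tested. Those under library size alone stand beside 33.0% higher and 14.6% lower. Counts in the other alternatives stand beside the shares of all genes called that are given above for each. Of 7 other pore proteins, TMEM33 rose (0.34 ± 0.12, adjusted p = 0.0320). RANBP2, the large filament protein of the cytoplasmic face, had 142, 162, 171 and 173 CPM and did not pass (0.18 ± 0.10). The TMEM33 call was lost in 4 of 13 alternatives. No gene of that list was called without a filter or on leaving out BRG1-labelled library 1 or 2, and 3 rose under library size alone.

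Of 23 import and export receptors 3 rose and 5 fell. IPO5, an importin that carries ribosomal proteins and histones, fell from 590 and 560 CPM to 276 and 265 (-1.09 ± 0.10, adjusted p = 9.59e-07). TNPO3, which imports splicing factors, fell by 0.47 on the log2 scale and TNPO2, a transportin, by 0.40, while XPO1, the main export receptor for proteins, rose from 40.4 and 33.4 CPM to 53.9 and 45.7 (0.43 ± 0.13, adjusted p = 0.0124). The TNPO3 and TNPO2 calls were lost in 2 and 3 of 13 alternatives, and that of XPO1 in 1. KPNA3 and KPNA6, importin alpha genes, rose by 0.30 and 0.25, calls lost in 7 and 8 of 13 alternatives. KPNB1, the importin beta with which they work, was level (217, 234, 226 and 221 CPM). Leaving out BRG1-labelled library 1 gave 0 rises and 1 fall among the receptors, and leaving out library 2 gave 1 and 2. Without control 1 there were 4 rises and 9 falls. Scaling by library size alone gave 8 rises and 1 fall, and removal of the span trend 1 rise and 8 falls.

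In the Ran cycle, the GTPase switch that gives transport its direction, 3 of 7 genes fell and 0 rose. RANBP1 fell from 80.2 and 72.0 CPM to 41.9 and 49.2 (-0.74 ± 0.11, adjusted p = 0.000101) and RAN from 264 and 204 to 155 and 164 (-0.55 ± 0.12, adjusted p = 0.00173). The RAN call was lost in 2 of 13 alternatives. In the Ran list 5 fell without control 1 or without control 2, 2 with library size alone, and 1 and 2 on leaving out BRG1-labelled library 1 or 2.

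Of 16 mRNA export genes 8 fell and 2 rose. NXT1, a partner of the export receptor NXF1, fell from 18.6 and 14.3 CPM to 7.52 and 8.23 (-1.06 ± 0.17, adjusted p = 0.000148), the helicase DDX39A by 0.87, SARNP by 0.68 and the adaptor ALYREF by 0.64. THOC2 and THOC1, subunits of the THO complex that couples transcription to export, rose by 0.50 ± 0.10 and 0.56 ± 0.13, and NXF1 itself did not pass (0.17 ± 0.10). The THOC2 call was lost in 1 of 13 alternatives. The export list gave 4 rises and 4 falls under library size alone, 4 and 6 after removal of the span trend, and 4 and 10 without control 2. Leaving out BRG1-labelled library 1 gave 1 rise and 5 falls, and leaving out library 2 gave 2 and 4.

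Of 14 other nuclear envelope proteins tested 2 rose and 4 fell. TMEM201, an inner membrane protein, fell from 17.4 and 22.8 CPM to 13.0 and 11.6 (-0.71 ± 0.16, adjusted p = 0.00226), CHMP7 and CHMP4B, which reseal the envelope, by 0.47 and 0.46, and TOR1AIP2, an activator of torsin ATPases, rose by 0.52 ± 0.12. Both VPS4B (0.29 ± 0.11) and TOR1A (-0.35 ± 0.13) passed as well, and the VPS4B call was lost in 8 of 13 alternatives. TOR1A was not followed through every alternative. Its call was lost under library size alone, where TMEM201 was the only fall, and without either library labelled BRG1. In this list 0 rose and 1 fell on leaving out BRG1-labelled library 1, 1 rose and 1 fell on leaving out library 2, and 4 rose and 1 fell under library size alone. Of 5 enzymes that process lamins, FNTA and FNTB, the subunits of the farnesyltransferase that B-type lamins and prelamin A require, fell by 0.44 ± 0.11 and 0.70 ± 0.15, and ICMT, which methylates the farnesylated end, rose by 0.48 ± 0.10. ZMPSTE24, the protease that matures lamin A, did not pass (0.16 ± 0.13). Of 8 chromatin partners of the lamina tested, CBX1 and CBX5, heterochromatin proteins of which CBX5 binds LBR, rose by 0.53 ± 0.11 and 0.47 ± 0.10, and EHMT2, which methylates histone H3, fell by 0.39 ± 0.11. The EHMT2 call was lost in 5 of 13 alternatives, that of CBX5 without either library labelled BRG1, and that of FNTA in 3. Calls of CHMP7 and CHMP4B were lost in 3 of 13 each, and those of TOR1AIP2 and ICMT in 1 each.

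**Figure D5:**
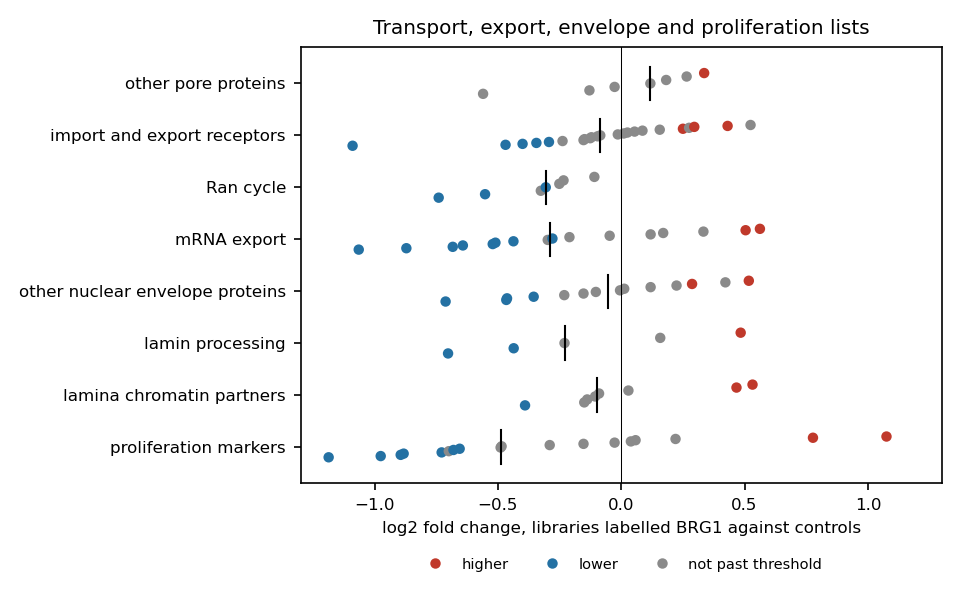
Log2 fold change (x axis) of each tested gene of 7 transport, export and envelope lists and of the proliferation markers; colours give the call at an adjusted p of 0.05 and vertical lines are list medians. Falls outnumber rises among Ran cycle (3 and 0), mRNA export (8 and 2), receptor (5 and 3), other envelope (4 and 2) and lamin processing (2 and 1) genes. The same holds for the proliferation markers (7 and 2). Rises outnumber falls among other pore proteins (1 and 0) and chromatin partners of the lamina (2 and 1). Over all genes tested 23.6% were lower and 21.0% higher. IPO5 is the lowest receptor at -1.09.

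SMARCA4 itself did not check the label: its level was 167 ± 17.1 CPM (SD, n = 2) in controls against 162 ± 2.82 in BRG1-labelled libraries (-0.04 ± 0.10, adjusted p = 0.765), so each direction above is that of the labelled libraries. Lamin B and LAP2 genes are known to follow proliferation. Of 18 proliferation markers tested 2 rose and 7 fell, beside 21.0% higher and 23.6% lower over all genes tested. The rises were TOP2A (1.08 ± 0.11) and CENPF (0.78 ± 0.15). The falls were led by MCM5 (-1.19 ± 0.15), PCNA (-0.98 ± 0.13) and MCM7 (-0.73 ± 0.10). The list's summed level was 396 to 407 CPM in controls against 315 to 316 in BRG1-labelled libraries. The part of proliferation in the pore and lamina values was not tested. Markers of fibroblasts summed to 26950 to 31410 CPM in controls against 47550 to 47900 in BRG1-labelled libraries. Of the 9 fibroblast markers 6 rose, beside 21.0% of all genes tested. Among them were FN1 (2.16 ± 0.17), COL1A1 (1.04 ± 0.13) and COL1A2 (0.95 ± 0.13), which hold most of the difference in the sum. The fibroblast markers were not followed through the alternatives. VIM (-0.27 ± 0.12), COL3A1 (-0.21 ± 0.12) and PDGFRB (-0.22 ± 0.13) did not pass. Of the other types, the 7 listed skeletal muscle markers with a row summed to at most 1.81 CPM, the 7 of keratinocytes to at most 3.61, the 6 of leukocytes to at most 3.77 and the 6 of endothelium to at most 8.98, with KRT5, KRT1, DSG3, PTPRC, MYOD1 and TEK at 0 reads in every library. Markers of adipocytes summed to at most 0.13 CPM and those of Schwann cells to at most 0.997. Melanocyte markers summed to 8.16 to 8.26 CPM in controls against 16.6 to 17.1 in BRG1-labelled libraries, nearly all of it from MITF. Of these other types, 1 endothelial and 1 melanocyte marker passed as higher, and 1 keratinocyte and 1 Schwann marker as lower. In bulk RNA, fewer cells of a type and less RNA per cell cannot be told apart.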

How the data were processed

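RNA-seq of each library was deposited as raw counts, whole reads assigned to Ensembl gene identifiers by the authors with no scaling. Per the submitters' processing notes, the tools included STAR and SAMtools for reads and Cufflinks, edgeR and DESeq2 for genes, on the build Sscrofa11.1; the counter, strand setting and annotation release are not given in the sources used here. Without the strand setting, reads of a gene and of an overlapping or antisense gene cannot be told apart. Closing rows that name no gene were left out of library sizes (6.11 to 10.5% of reads outside genes, 1.90 to 2.33% ambiguous, 1.42 to 1.80% aligned to several places). Gene reads summed to between 34486400 and 38126860 per library.

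Low counts were removed with edgeR's filterByExpr (a minimum of 10 and a total of 15), libraries were scaled by TMM, and genes were tested with the quasi-likelihood F test of edgeR 4.0.16 in R 4.3.3 over all 14617 genes kept, with Benjamini-Hochberg adjustment; the common biological coefficient of variation was 0.113. Fold changes carry a prior count of 0.125, and the SE follows from the F statistic and the fold change without shrinkage. Replicate correlations of log2 CPM were 0.976 (controls) and 0.984 (BRG1), while pairs from different groups had 0.939 to 0.943. Counts of replicates differed by more than counting noise (chi-square over its degrees of freedom 30.1 in controls and 4.80 in BRG1). Tested on simulated data for this comparison, the fit called 88 of 100 2-fold changes, 98 of 100 4-fold changes and 7 of 13580 unchanged genes. Every simulated gene had the same dispersion, and only these changes were put in, as many up as down. In the data 44.6% of all genes tested passed and controls scattered more than the libraries labelled BRG1, so these rates may not carry over.

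Members and gene lists were chosen with earlier results of these data known. Every member is accounted for, those past the threshold, the lamins and the LINC genes with the level in each library; of each list, up to 4 genes with the smallest adjusted p, and those moving against the rest, are named (1 gene that this rule names is not reported here), with a few more (RANBP2, KPNB1, NXF1, ZMPSTE24, TOR1A) chosen after their values were seen. Symbols came with the deposited counts, and 223 missing ones were filled in by gene identifier. Coordinates and spans came from the RefSeq table of Sscrofa11.1, by symbol, and 39 of 40 members had a span. The alternatives were DESeq2 size factors, library size alone, no filter, a filter of 1 CPM in 2 libraries, DESeq2 1.42.0, limma-voom (limma 3.58.1), the replicate block, removal of each library's lowess trend with span, the last 2 together, and each library left out.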

Additional observations from a re-analysis of the deposited data

Results flagged for a closer look

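Reads outside annotated genes, which enter none of the comparisons, made up 10.4% ± 0.19 of the reads listed in the libraries labelled BRG1 (SD, n = 2), above the 6.73% ± 0.87 of the controls. Their part in the values of the pore and lamina genes was not tested.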

How the results depend on the processing

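Of the 13 members called, 12 were still called in the same direction with DESeq2's size factors, without a filter and with DESeq2, 11 with the filter of 1 CPM, 13 with limma-voom and without either control, 9 with library size alone, 7 with the span trend removed, and 8 without either library labelled BRG1. Of the 26 not called, 10 passed in at least 1 alternative and 16 in none, and 18 changed sign in at least 1. Whether the replicate numbers pair the libraries is not stated in the sources used here. Deviations of control 1 and of BRG1-labelled library 1 from their group means had a correlation of -0.04, which cannot settle this. With the replicate block 3 members were higher and 9 lower, NUP50 no longer passing (adjusted p = 0.0527). With library size alone 4820 genes were higher and 2139 lower over all genes, 6 and 6 of the members, and 23 and 9 of the transport, export and envelope lists. Leaving out 1 library gave 1908 to 3673 higher and 2177 to 4321 lower genes, 2 to 4 and 6 to 13 members, and 3 to 14 and 9 to 30 list genes, the lone library of a group being assumed to vary like the others. SMARCA4 was 0.18 with library size alone and from -0.15 (without control 1; adjusted p = 0.0251) to 0.048 (without control 2) with a library left out.

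Members that changed sign with library size alone were NUP58 (0.20), NUP98 (0.083), NUP205 (0.022), NUP93 (0.22), LMNA (0.20), LMNB1 (0.041), NUP153 (0.14), TPR (0.15), NUP107 (0.11) and NUP85 (0.14). With the span trend removed they were EMD (0.023), LEMD3 (-0.11), SUN1 (-0.048), NUP214 (-0.026) and AHCTF1 (-0.052), and with the replicate block and that trend removed EMD (0.022), LEMD3 (-0.11), SUN1 (-0.042), NUP214 (-0.025) and AHCTF1 (-0.051). Without a filter they were LEMD3 (-0.005), SUN1 (-0.022) and SEH1L (-0.002), and with the filter of 1 CPM NUP93 (0.018) and LMNA (0.002). With each library left out in turn, the members whose sign changed at least once had these ranges: LEMD3 (-0.11 to 0.15), SUN1 (-0.14 to 0.15), NUP58 (-0.084 to 0.028), NUP42 (-0.078 to 0.16), NUP93 (-0.091 to 0.062), NUP210 (-0.47 to 0.91), AHCTF1 (-0.003 to 0.15), NUP37 (-0.091 to 0.57), NUP85 (-0.19 to 0.012) and SEH1L (-0.17 to 0.20). Of these, EMD alone was called in the first place. The cause was not tested. With 10 to 29 reads in NUP210 and 0 to 8 in NUP210L, depth leaves both undecided.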

Other observations

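SEC13, SYNE2 and SYNE3 have partners outside the envelope, and 3 lists of these were drawn up after the values of the 3 genes had been seen. Of 12 genes of the COPII coat tested, 2 fell and 1 rose, beside 44.6% of all genes called in either direction. SEC31A, which forms the outer coat with SEC13, was level at 483 and 520 CPM in controls and 499 and 530 in the libraries labelled BRG1 (0.04 ± 0.11; adjusted p = 0.808). SEC23B, an inner coat subunit, fell from 118 and 120 CPM to 67.3 and 73.7 (-0.76 ± 0.10; adjusted p = 2.72e-05), SEC24C, a cargo adaptor, fell by 0.37, and SEC24B, another adaptor, rose by 0.30. The coat list gave 5 rises and 1 fall under library size alone, 0 and 5 after removal of the span trend, and 0 and 1 on leaving out BRG1-labelled library 1 or 2. It gave 1 rise and 5 falls without control 1, and 3 and 5 without control 2. The SEC23B fall passed in 13 of 13 alternatives, the SEC24C fall in 10 and the SEC24B rise in 6. Of 3 further GATOR2 genes, WDR24 fell (-0.51 ± 0.14; adjusted p = 0.00675), a call lost in 4 of 13 alternatives, while MIOS and WDR59 did not pass.

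Of 7 genes whose proteins link nesprins to the cytoskeleton, FHOD1, a formin that binds nesprin-2, rose from 20.9 and 25.01 CPM to 29.6 and 31.2 (0.41 ± 0.14; adjusted p = 0.0232), and KLC2, a kinesin light chain, fell by 0.47. These counts of 1 rise and 1 fall stand beside 44.6% of all genes called. They were 4 and 0 under library size alone, 0 and 3 without control 1, 3 and 1 without control 2, 0 and 0 on leaving out BRG1-labelled library 1, and 0 and 1 on leaving out library 2. The FHOD1 call was lost in 3 of 13 alternatives and that of KLC2 in 4. PLEC, the plectin that nesprin-3 binds, stood at 849 and 1238 CPM in controls and 1312 and 1300 in the libraries labelled BRG1, higher in both but not past the threshold (0.32 ± 0.15; adjusted p = 0.0871).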
